A study of Rattus norvegicus with 6 samples.

Results

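Klotho, encoded by Kl, and the 4 signalling receptors for fibroblast growth factors (FGFs), encoded by Fgfr1, Fgfr2, Fgfr3 and Fgfr4, were followed in the choroid plexus of the lateral ventricle of Sprague-Dawley rats, the tissue that secretes cerebrospinal fluid. These 5 genes were taken by symbol from 14217 genes with an array probe set annotated to no other gene, and each was read from whichever such probe set was brightest on average over all arrays. RNA came from rats for which the labels name no treatment, at embryonic day 19 (E19), at postnatal day 2 (P2) and in adulthood, and was hybridised to 6 Affymetrix Rat 230 2.0 arrays, 2 per stage. Each array held RNA of a separate pool of plexuses, from 5 animals at E19 and P2 and 3 adult males by the study's methods, while the sample labels speak of batches of 6 to 10 plexuses. The age of the adults was not given in the sources used here. All tests rest on the spread between the 2 pools within a stage, shared over the 3 stages and moderated across probe sets. Values are MAS5 signal intensities in linear units, for which the authors had brought the trimmed mean of every array to 1 level. A probe set was tested if its mean reached 100 units in at least 1 stage, which 4 of the 5 genes did, among 10334 genes in all.

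Klotho is a membrane protein made above all in the distal tubule of the kidney and in the choroid plexus epithelium. It joins an FGF receptor to form the high-affinity receptor for FGF23, the bone hormone that controls phosphate and vitamin D, and its outer part is shed by proteases of the ADAM family and found in blood and cerebrospinal fluid. FGF receptors are tyrosine kinases that bind an FGF together with heparan sulfate and signal through the adaptor FRS2 to the ERK cascade, which in turn induces its own inhibitors of the Sprouty and DUSP families. The adult plexus held the highest level of Kl, Fgfr1 and, on its brightest probe set, Fgfr2, all of which were lower at E19 and at P2, whereas Fgfr3 did not pass the test in any comparison and Fgfr4 stayed under 100 units on every array.

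The 5 genes lie on 5 chromosomes of the rat assembly GRCr8, Kl at chr12:5326003-5367016, Fgfr1 at chr16:73194631-73249855, Fgfr2 at chr1:194175703-194280914, Fgfr3 at chr14:81211800-81227215 and Fgfr4 at chr17:9466686-9481423. The genome build behind the array's probe sets is not given in the sources used here, and these positions are those of the RefSeq gene table. The RefSeq promoter table held 4 of the 5 genes, all but Fgfr1. The 250 bases before the start of Kl, at chr12:5325753-5326002 on the plus strand, and of Fgfr2, at chr1:194280915-194281164 on the minus strand, are shown because these are the members that were lower in both developing stages and had an entry. Capitals mark GGGCGG or its reverse complement CCGCCC, the GC box, and each sequence runs 5′ to 3′ on the strand of its gene.
Kl: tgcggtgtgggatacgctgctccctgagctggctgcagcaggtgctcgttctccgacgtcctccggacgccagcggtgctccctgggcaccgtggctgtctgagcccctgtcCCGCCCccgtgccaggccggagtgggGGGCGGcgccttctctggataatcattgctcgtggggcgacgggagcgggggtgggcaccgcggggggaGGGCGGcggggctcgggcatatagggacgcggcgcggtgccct
Fgfr2: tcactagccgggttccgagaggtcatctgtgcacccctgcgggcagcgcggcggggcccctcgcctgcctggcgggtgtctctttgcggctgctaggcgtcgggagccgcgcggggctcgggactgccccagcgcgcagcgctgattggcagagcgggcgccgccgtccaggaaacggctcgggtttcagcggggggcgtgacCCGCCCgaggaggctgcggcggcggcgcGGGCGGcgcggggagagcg
The Kl window held 3 GC boxes and 27 CG dinucleotides, and the Fgfr2 window held 2 GC boxes and 37 CG dinucleotides. GC boxes on either strand stood in 30.5% of the 33469 windows of this length in the table, with at least 2 in 14.8% and at least 3 in 7.41%, and the median window had 5 CG dinucleotides. Fgfr3 had 3 GC boxes and Fgfr4 had 2. TATAAA on either strand was in none of the 4 windows and in 12.9% of all. These are matches of letters in windows rich in G and C, and no binding was measured.

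The median signal of an array was lowest in the adult, with medians of 125 and 126 units at E19, 126 and 121 units at P2, and 106 and 100.4 units in adult plexus. Markers of choroid plexus epithelium, 10 of 12 on the array, summed to between 85294 and 89451 units on all 6 arrays, with Kcnj13 alone under 100 units throughout. Markers of other cells were not so even. Endothelial markers, 11 of 12 on the array, summed to 11684 and 11109 units at E19, 11287 and 10726 units at P2, and 2221 and 2179 units in adult plexus, and none was under 100 units on all arrays. Fibroblast markers, all 10 on the array and none under 100 units on all arrays, summed to 23176 and 23380 units at E19, 27972 and 24377 units at P2, and 8053 and 8756 units in adult plexus. The 11 cell cycle genes, also none under 100 units throughout, ranged from 11775 to 12667 units in the developing pools and were at 4741 and 4771 in the adult. Oligodendrocyte markers, 7 of 8 on the array with Olig2 under 100 units throughout, were at 619 and 589 units at E19, 726 and 734 units at P2, and 3469 and 1695 units in adult plexus, so that the adult pools differed in them by more than the developing ones. In whole tissue, fewer cells of a type and less RNA per cell cannot be told apart.

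Kl was the member that differed most between stages. Its only probe set read 803 and 832 units at E19, 829 and 918 units at P2 and 2971 and 2574 units in the adult. Both adult pools lay above all 4 developing pools, while the E19 and P2 pools overlapped. The E19 mean was 817 ± 20.0, the P2 mean 873 ± 62.7 and the adult mean 2773 ± 281 (SD, n = 2 pools each). Kl was 3.38-fold lower at E19 than in the adult, or -1.76 as log2 fold change (SE 0.11, 95% interval -2.04 to -1.47, limma adjusted p = 0.00033). The P2 pools lay 3.17-fold below the adult ones, at -1.66 on the log2 scale (95% interval -1.95 to -1.38, limma adjusted p = 0.0005). Both comparisons use the same adult arrays. Of the 10334 tested genes, 271 had a lower log2 fold change at E19 and 177 at P2. Between P2 and E19 the log2 difference was 0.09 with a 95% interval of -0.19 to 0.38, and Kl was not called (limma adjusted p = 0.631). Leaving out any 1 array kept the difference over the adult between -1.86 and -1.66 for E19 and between -1.77 and -1.56 for P2, and over all 16 alternatives it stayed between -2.04 and -1.66 and between -1.92 and -1.56. The summed epithelial markers were near level across the stages, but single ones were not. Cldn2, the claudin of leaky tight junctions, had its highest level in the adult as Kl did, at 2617 and 2573 units at E19, 4581 and 5102 units at P2, and 8881 and 9627 units in adult plexus, and was called lower at E19 and P2 (log2 -1.83 and -0.94, limma adjusted p = 0.000222 and 0.00175). The keratin genes Krt8 and Krt18 were called higher at both stages, and Otx2 and Foxj1 at E19 (limma adjusted p = 0.035 and 0.0151). Of 9 tested epithelial markers, Cldn2 was the only one called lower. At E19, 4 were called higher and 4 not called, and at P2, 2 and 6. Over all tested genes, 31.4% were called higher and 25.2% lower at E19, and 28.8% and 21.8% at P2. Of the other cells, the summed oligodendrocyte markers were highest in the adult, as Kl was, and the summed endothelial and fibroblast markers lowest, although the fibroblast marker Pdgfra was called lower at both developing stages and Dpt at P2. The part of these cells in the Kl difference was not tested.

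**Figure D1:**
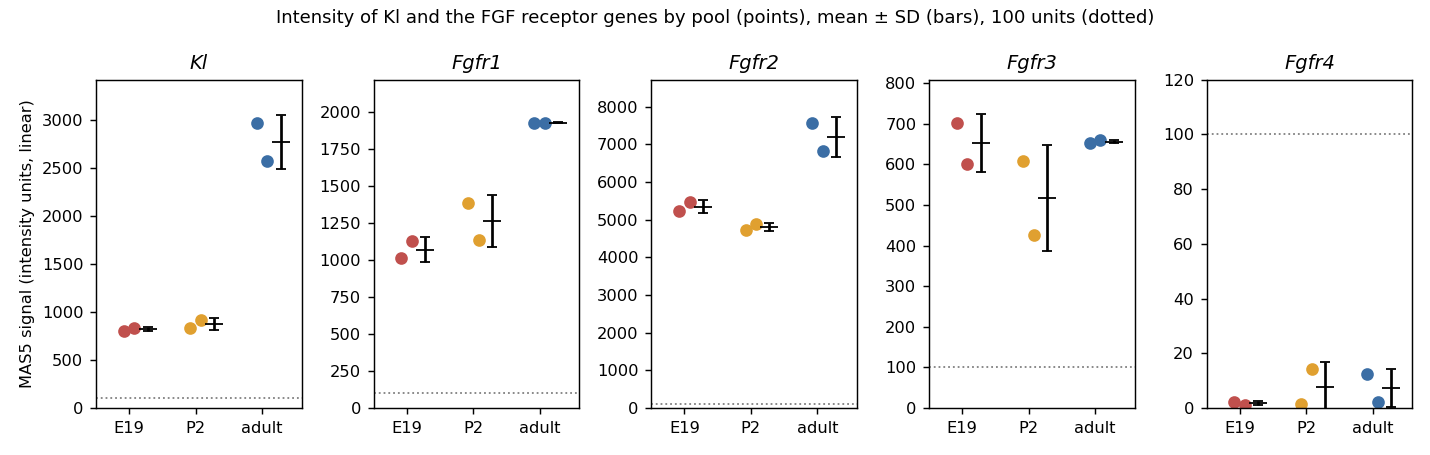
MAS5 signal intensity (linear units, vertical axes starting at 0 and scaled to each gene) of Kl, Fgfr1, Fgfr2, Fgfr3 and Fgfr4 at E19, P2 and in the adult, with 1 point per pool, bars for mean ± SD (n = 2) and a dotted line at 100 units. Kl sat at 803 to 918 units in the developing pools and at 2574 and 2971 in the adult pools, and Fgfr4 stayed under the line.

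Fgfr1, the receptor that Klotho most often joins as co-receptor for FGF23, read 1009 and 1129 units at E19, 1385 and 1136 units at P2 and 1927 and 1924 units in the adult. The pools of the 3 stages did not overlap, with E19 lowest and the adult highest, although the lower P2 pool exceeded the higher E19 pool by few units. Means were 1069 ± 84.8, 1261 ± 176 and 1925 ± 1.89 units in that order of stages (SD, n = 2). Fgfr1 was 1.80-fold lower at E19 than in the adult (log2 -0.85, SE 0.13, 95% interval -1.18 to -0.52, limma adjusted p = 0.00429), and this call held under all 16 alternatives with values between -1.13 and -0.77. The P2 difference was 1.53-fold, again downwards (log2 -0.62, 95% interval -0.95 to -0.29, limma adjusted p = 0.014), a call that ended when no filter on low values was set (adjusted p = 0.0629) or adult pool 2 was left out (adjusted p = 0.05002). P2 and E19 differed by 0.23 on the log2 scale (95% interval -0.09 to 0.56, limma adjusted p = 0.301), which was not called.

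Another probe set of Fgfr1 gave the same order of stages. It read 250.4 and 272 units at E19, 324 and 331 units at P2, and 499.8 and 516 units in adult plexus, again with no overlap. Its log2 fold changes over the adult were -0.96 at E19 (limma adjusted p = 0.000879) and -0.63 at P2 (limma adjusted p = 0.00398), close to those of the first probe set. Its difference between P2 and E19, 0.33, was not called (limma adjusted p = 0.0886).

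Fgfr2, a receptor that epithelia express in a splice form of their own, read 5229 and 5464 units at E19, 4733 and 4879 units at P2 and 7583 and 6814 units in the adult. Here P2 was the lowest stage, and no 2 stages overlapped. The E19 mean was 5346 ± 167 units, the P2 mean 4806 ± 103 and the adult mean 7199 ± 544 (SD, n = 2). The gene was lower at P2 than in the adult by 1.5-fold (log2 -0.58, SE 0.09, 95% interval -0.82 to -0.34, limma adjusted p = 0.00644). The E19 pools lay 1.34-fold below the adult ones (log2 -0.43, 95% interval -0.67 to -0.19, limma adjusted p = 0.0148), and that call was lost without E19 pool 1, E19 pool 2 or adult pool 1, at adjusted p of 0.0841, 0.0614 and 0.0561. P2 against E19 gave -0.15 (95% interval -0.39 to 0.09, limma adjusted p = 0.348).

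The other probe sets of Fgfr2 were dim and did not repeat this order. The brightest of them read 158 and 186 units at E19, 105 and 78.7 units at P2, and 128 and 130 units in adult plexus, with E19 highest and P2 lowest. Its log2 difference was -0.92 for P2 against E19, where it was called (limma adjusted p = 0.0439). Against the adult it was not called, at 0.42 for E19 (limma adjusted p = 0.0863) and -0.50 for P2 (limma adjusted p = 0.0562). A further 3 probe sets stayed under 100 units on all arrays, too low to measure a fold. In 1 of them the E19 pools were highest, at 70.5 and 97.5 units, with 33.2 and 26.8 units at P2, and 49.8 and 29.6 units in adult plexus. In the remaining ones E19 and adult pools overlapped. These read 36.9 and 30.3 units at E19 against 46.6 and 16.2 units in the adult, and 39.5 and 10.1 units against 26.8 and 12.8 units. With the mean over all 5 probe sets in place of the brightest, Fgfr2 stood 0.30 above the adult at E19 and 0.46 below it at P2 on the log2 scale, neither of them called (limma adjusted p = 0.358 and 0.193). Which splice forms these probe sets detect was not established here, and Esrp1, a regulator of FGF receptor splicing in epithelia, was under 100 units on average at each stage.

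**Figure D2:**
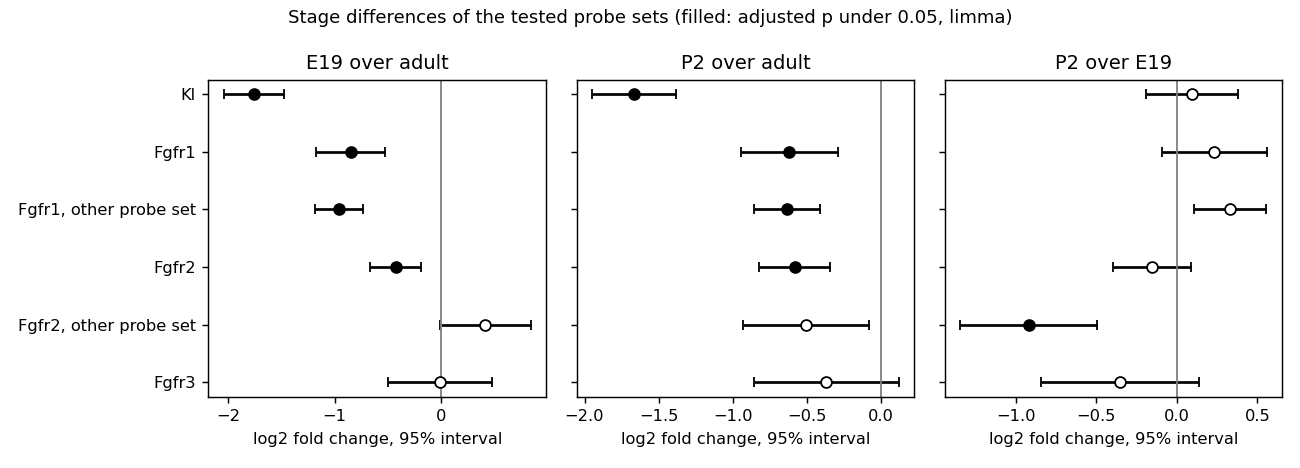
Log2 fold changes with 95% intervals for the tested probe sets of Kl, Fgfr1, Fgfr2 and Fgfr3, from the top down, in the comparisons E19 over adult, P2 over adult and P2 over E19 (filled points: limma adjusted p under 0.05). Kl lies farthest below 0 in both comparisons with the adult, at -1.76 and -1.66, and the brightest and the other probe set of Fgfr2 lie on opposite sides of 0 at E19.

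Fgfr3, a receptor best known for restraining bone growth and also found in astrocytes, read 703 and 601 units at E19, 609 and 425 units at P2 and 653 and 659 units in the adult. E19 overlapped both other stages, while both P2 pools lay below both adult pools. The E19 mean was 652 ± 72.1 units, the P2 mean 517 ± 130 and the adult mean 656 ± 4.26 (SD, n = 2). None of the differences was called, with log2 values of -0.01 for E19 over adult (95% interval -0.50 to 0.48, limma adjusted p = 0.959), -0.37 for P2 over adult (95% interval -0.86 to 0.12, limma adjusted p = 0.17) and -0.35 for P2 over E19 (95% interval -0.84 to 0.14, limma adjusted p = 0.296). The interval for P2 reaches to a level 1.81-fold below the adult. P2 over adult was called without P2 pool 1 (-0.63, limma adjusted p = 0.0349) and with each array centred on its median (-0.62, limma adjusted p = 0.0329). A second probe set of Fgfr3 stayed between 30.03 and 77.6 units. Astrocyte markers, all 6 on the array with Slc1a2 under 100 units throughout, summed to 8642 and 8708 units at E19, 9212 and 6671 units at P2, and 2790 and 2459 units in adult plexus. Gja1 and Slc1a3 carried most of this sum, whereas Gfap, Aldh1l1 and Aqp4 were called lower at E19 than in the adult. P2 pool 2, the lowest pool in Fgfr3, was the lowest developing pool in the sum. Gfap was under 100 units in every developing pool and differed by few units between the P2 pools, so their order in Gfap was not read. The part of astrocytes in the Fgfr3 level was not tested.

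Fgfr4, a receptor known for its role in the liver, read 2.27 and 1.22 units at E19, 1.38 and 14.2 units at P2, and 12.3 and 2.33 units in adult plexus on its only probe set. All pools lay far under 100 units and the stages overlapped, so no fold change is given. A low reading of 1 probe set does not show that the transcript was absent.

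Of the 4 tested members, 3 were called lower at E19 than in the adult, where 25.2% of all tested genes were called lower and 56.6% were called in either direction. The same 3, Kl, Fgfr1 and Fgfr2, were called lower at P2, against 21.8% of tested genes called lower and 50.6% in either direction. Between P2 and E19 none was called, where 6.17% of tested genes were, and at an unadjusted p under 0.05 the count was also 0. The median log2 fold change of the 4 was -0.64 at E19 and -0.60 at P2 against 0.04 and 0.05 over all tested genes. With arrays centred on their medians, the median of all tested probe sets moved to -0.23 at E19 and -0.22 at P2, from where Kl at -2.04 and -1.92 was still far removed. In that setting 33.8% and 33.3% of the probe sets called over the adult were higher, at E19 and P2, against 55.7% and 55.6% as deposited.

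Some genes followed the members closely over the 6 arrays, as measured by the root mean square distance between log2 profiles centred per gene. Nearest to Kl were Acss1, a mitochondrial acetyl-CoA synthetase, at 0.0698, Cyp51, the lanosterol demethylase of cholesterol synthesis, at 0.0736, and Cyp4v3 at 0.0912, where the median over all tested genes was 0.848. Cyp51 read 703 and 771 units at E19, 726 and 770.0 units at P2, and 2563 and 2519 units in adult plexus. For Fgfr1 the nearest were Mtmr10, Slc22a5, the carnitine carrier, and Usp2, at 0.0361 to 0.0504 with a median over genes of 0.442. For Fgfr2 they were Cpd, Hspa9 and Smpd1, at 0.0435 to 0.0456 with a median of 0.354, and for Fgfr3 Elapor1, Mtor and Ep400, at 0.0734 to 0.0782 with a median of 0.359. These are the closest of many genes over 6 arrays that fall into 3 stages, given as a description.

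Around the members, 109 genes of FGF and Klotho biology were listed, of which 92 could be read from a probe set annotated to no other gene and 60 were tested. At E19, 33 of the 60 were higher than in the adult, 13 lower and 14 not called, with a median log2 fold change of 0.57, where 31.4% of all tested genes were called higher and 25.2% lower. At P2, 32 were higher, 11 lower and 17 not called, with a median of 0.40, where the shares of all tested genes were 28.8% and 21.8%. Where both pools of a stage were under 100 units the fitted value is no measure of the fold, and with such genes at their bound against 100 units the medians were 0.28 and 0.26. Such genes had passed the filter only through other stages. Between P2 and E19, 3 were higher, 2 lower and 55 not called, where 3.61% of all tested genes were higher and 2.56% lower.

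**Figure D3:**
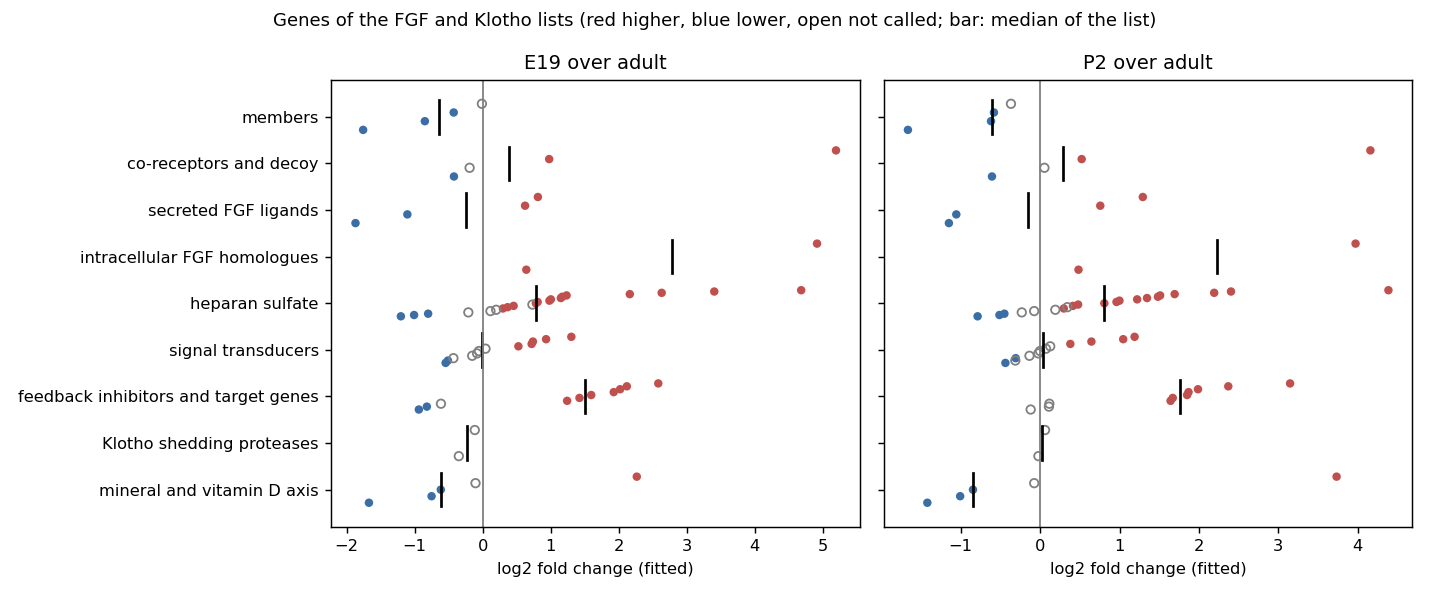
Fitted log2 fold changes of the tested genes of each list (points, red called higher, blue called lower, open not called, limma adjusted p under 0.05) with the median of the list as a bar, for E19 over adult and P2 over adult. Feedback inhibitors and target genes lie mostly to the right of 0 (medians 1.51 and 1.76) and the tested members to the left or at 0, and points beyond 4 include genes whose adult pools were under 100 units.

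Among the ligands, Fgf1, which binds all FGF receptors, read 777 and 765 units at E19, 1213 and 1519 units at P2, and 2926 and 2718 units in adult plexus. The adult pools were highest, as for Kl, and here no stages overlapped. Fgf1 was 3.66-fold lower at E19 (log2 -1.87, SE 0.13, limma adjusted p = 0.000429) and 2.08-fold lower at P2 (log2 -1.06, limma adjusted p = 0.00292) than in the adult. A second probe set was called lower at both stages (-1.81 and -1.44), and another at E19 (-1.48, limma adjusted p = 0.00206) but not at P2 (-0.36, limma adjusted p = 0.145). The second read 41.4 to 70.4 units in the developing pools and the other 90.3 and 90.8 units at E19. These fitted values under 100 units are no measure of the fold. Fgf23 itself read 26.5 and 29.8 units at E19, 33.7 and 37.4 units at P2, and 39.8 and 13.1 units in adult plexus. It was 1 of 15 among the 19 measured ligand and binding protein genes that stayed under 100 units on all arrays, so that of the secreted FGFs Fgf1 and the dim Fgf9, at no more than 114 units, were tested.

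Of 6 genes for co-receptors and the decoy receptor 4 were measured, and the Klotho relatives Klb and Lctl were not analysed here. Flrt1 and Flrt3, membrane proteins that bind FGF receptors, were called higher at both developing stages and their relative Flrt2 lower. Over all tested genes, 31.4% were called higher and 25.2% lower at E19, and 28.8% and 21.8% at P2. Flrt1 read 3.62 and 13.5 units in the adult pools and passed the filter only through the developing stages. It exceeded the adult at least 2.56-fold at E19 and 1.27-fold at P2. The Flrt2 call at E19 ended without E19 pool 1 or either adult pool, the Flrt3 call at P2 with arrays centred on their medians, and the Flrt1 call at P2 once a floor of 100 units was set. Flrt3 exceeded the adult 1.97-fold at E19 and 1.44-fold at P2 (limma adjusted p = 0.000713 and 0.00591). Fgfrl1, the receptor without a kinase, read 301 and 358 units at E19, 405 and 375 units at P2, and 354 and 398 units in adult plexus and was not called (limma adjusted p = 0.247 at E19 and 0.742 at P2), except lower at E19 with arrays centred on their medians (-0.47).

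Heparan sulfate, the sugar chain that FGFs and their receptors need to assemble, had 21 tested genes out of 25 listed. At E19, 14 were higher than in the adult, 3 lower and 4 not called, and the P2 counts were the same, with the same genes in each class. Over all tested genes, 31.4% were called higher and 25.2% lower at E19, and 28.8% and 21.8% at P2. The medians were 0.78 at E19 and 0.81 at P2, or 0.45 and 0.58 with 4 genes at their bounds, against 0.04 and 0.05 over all tested genes. Those 4, Hs3st1, Hs6st2, Sdc3 and Gpc2, had both adult pools under 100 units and passed the filter only through the developing stages. With a minimum of 200 units, 10 genes were called higher at E19 and 10 at P2. Ext1, a subunit of the polymerase of the chain, read 3739 and 3699 units at E19, 1547 and 1669 units at P2, and 347 and 356 units in adult plexus, 10.6-fold and 4.57-fold above the adult (limma adjusted p = 5.23e-05 and 0.000136). Lower in the developing plexus, as Kl and Fgfr1 were, stood Sdc4 (syndecan-4), Gpc1 (glypican-1) and the sulfatase Sulf1. Their log2 values were -1.20, -1.01 and -0.80 at E19 and -0.79, -0.51 and -0.45 at P2. Both Sulf1 calls ended with the mean over its probe sets, and the one at P2 also without P2 pool 1 or adult pool 1. Endothelial and fibroblast marker sums moved with the genes that were higher, and their part in these counts was not tested.

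Of 18 genes that carry the signal inward from the receptors 12 were tested, and 6 of the Ras, Raf and ERK genes were not analysed here. At E19, 5 were higher than in the adult, 2 lower and 5 not called, and at P2, 4 were higher, 2 lower and 6 not called. These counts were near the background, as 56.6% and 50.6% of all tested genes were called in either direction, and so were the medians, -0.01 and 0.04. Gab1, a docking protein between receptor and PI3 kinase, exceeded the adult 2.47-fold at E19 and 2.28-fold at P2 (limma adjusted p = 0.000532 and 0.000879). Plcg1, the phospholipase that the receptors phosphorylate, lay 1.46-fold and 1.35-fold below it (limma adjusted p = 0.00447 and 0.0107).

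Genes that ERK signalling is known to induce, many of them inhibitors of it, were mostly higher in the developing plexus. Fgfr1 and, on its brightest probe set, Fgfr2 were lower there. Of 10 tested, 7 were called higher at E19 and also at P2, namely Spry1, Spry3, Spry4, Dusp6, Etv5, Egr1 and Fos, against 31.4% and 28.8% of tested genes called higher. Spred3 and Etv1 were lower at E19 (Etv1 not without E19 pool 2 or adult pool 2) and not called at P2, and Spry2 was called at neither stage, though lower at E19 without E19 pool 1 or with arrays centred on their medians. A further probe set of Etv1 was called lower at E19 (-1.09), but others were not (-0.15 and -0.21). The probe set at -0.15 was called higher at P2 (0.59, limma adjusted p = 0.0461). The medians were 1.51 at E19 and 1.76 at P2, or 0.85 and 1.18 with 3 genes at their bounds, Spry3 among them, which read at most 109 units on any array. These 3, Spry1, Spry3 and Etv5, had both adult pools under 100 units and passed the filter only through the developing stages. With a minimum of 200 units, 5 genes were called higher at E19 and 5 at P2. With values under 100 units set to 100, the Spry3 calls and the E19 call of Etv5 ended. Spry1, a Sprouty inhibitor, read 386 and 395 units at E19, 542 and 619 units at P2, and 73.0 and 58.4 units in adult plexus. It exceeded the adult at least 3.91-fold at E19 and 5.80-fold at P2 (limma adjusted p = 0.000226 and 0.000184). Dusp6, the phosphatase that switches off ERK, read 1172 and 1309 units at E19, 1723 and 1955 units at P2, and 613 and 349 units in adult plexus. The adult pools of Dusp6 differed widely and still lay below the others, with an E19 level 2.68-fold that of the adult (limma adjusted p = 0.00981, not called without E19 pool 2 or with the mean over its probe sets) and a P2 level of 3.97-fold (limma adjusted p = 0.00402). Cell cycle and endothelial marker sums were higher in the same stages, and their part in this list was not tested.

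**Figure D4:**
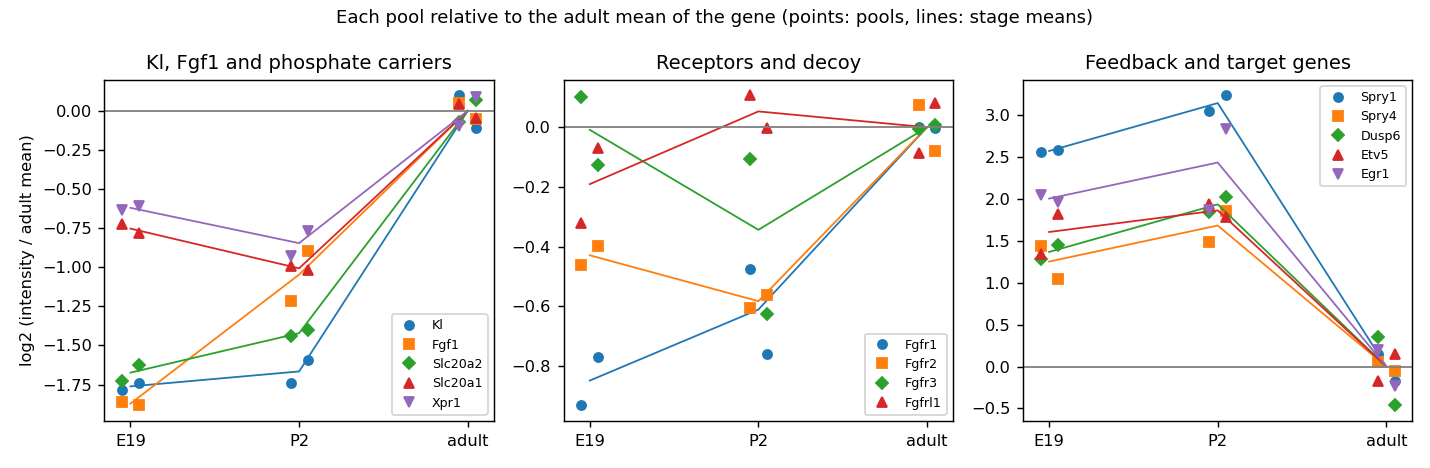
Log2 of intensity over the adult mean of the same gene, with 1 point per pool and lines through the stage means at E19, P2 and in the adult, for Kl with Fgf1 and phosphate carriers (left), the receptors with the decoy Fgfrl1 (middle) and feedback and target genes (right). In all developing pools Kl, Fgf1 and the phosphate carriers lie below 0 and Spry1, Spry4, Dusp6, Etv5 and Egr1 above it, with Spry1 and Etv5 under 100 units in both adult pools.

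The proteases that shed Klotho were not called as tested, though the E19 value of Adam10 lay near the threshold. Adam10 read 233 and 208 units at E19, 276 and 312 units at P2, and 302 and 261 units in adult plexus (limma adjusted p = 0.0642 at E19 and 0.703 at P2). It was called lower at E19 with arrays centred on their medians (-0.63) or quantile normalized (-0.55), with a minimum of 200 units (-0.35) and with values under 100 units set to 100 (-0.35). Over all 16 alternatives its E19 value ran from -0.63 to 0.34, so its direction did not hold in all of them. Adam17 was at 799 to 912 units on all arrays (limma adjusted p = 0.313 at E19 and 0.859 at P2) and was called lower at E19 with arrays centred on their medians (-0.39). Bace1 stayed under 100 units on average at each stage.

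In the mineral and vitamin D axis, on which Klotho acts in the kidney, 5 of 16 listed genes were tested, and 3 phosphate carriers were lower in the developing plexus as Kl was. Over all tested genes, 25.2% were called lower at E19 and 21.8% at P2. Slc20a2, a sodium-phosphate importer, read 1534 and 1647 units at E19, 1869 and 1920.1 units at P2, and 4827 and 5323 units in adult plexus. It lay 3.19-fold below the adult at E19 and 2.68-fold at P2 (log2 -1.67 and -1.42, limma adjusted p = 0.000247 and 0.000501). Slc20a1, its close relative, lay 1.68-fold and 2.01-fold below (limma adjusted p = 0.00166 and 0.0009), and Xpr1, the phosphate exporter, 1.53-fold and 1.80-fold (limma adjusted p = 0.00738 and 0.00328). Trpv5, a calcium channel that Klotho regulates in the kidney, read 211 to 240.5 units and was not called on the deposited scale, but was called lower with arrays centred on their medians (-0.38 at E19 and -0.33 at P2). Pth1r, the receptor for parathyroid hormone, was called higher at both stages, with 22.7 and 58.7 units in the adult pools (limma adjusted p = 0.00971 at E19 and 0.0024 at P2). As both adult pools were under 100 units, it exceeded the adult at least 1.76-fold at E19 and 4.87-fold at P2. The E19 call ended without E19 pool 1 or with the mean over its probe sets, where the fitted log2 value was 0.61 in place of 2.26. Vdr, the vitamin D receptor, and the renal phosphate carriers Slc34a1 and Slc34a3 were among the 10 genes of this list that stayed under 100 units on average at each stage. So was Rxra, at 6.21 to 17.9 units on its probe set, although the paper counts it among the genes with high expression in choroid plexus. A low reading of 1 probe set therefore does not show absence, here or in the lists above.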

How the data were processed

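The authors amplified total RNA of 2 pools per stage with a 3′ expression kit, hybridised it to Affymetrix Rat 230 2.0 arrays and deposited MAS5 signal intensity from Affymetrix Expression Console (both named in the submitters' processing notes, versions not given in the sources used here), with the trimmed mean of each array set alike. No further normalization was applied. Of 31099 probe sets 57 were controls, and all 6 columns were used. A stage mean of 100 units or more in any stage was required, which 17808 probe sets met, and their log2 intensities went into a limma fit (limma 3.58.1, R 4.3.3) of stage means without covariates, leaving 3 residual degrees of freedom with 2.15 from the prior. All P-values were two-sided, the Benjamini-Hochberg adjustment ran over every probe set tested in that comparison, and the threshold was 0.05. Where both pools of a stage were under 100 units, a fold is given as a bound against 100 units, from the mean of the other stage.

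The array annotation gave 1 gene to 20832 probe sets and several to 436, and gene names followed the RefSeq table of GRCr8, in which 68 gene numbers had no match. Where a gene had several single-gene probe sets, the brightest on average stood for it and the others served as a check. Every member was named, list genes from among those that were called or define their list, and the 3 genes nearest in profile to each tested member. Members, lists and markers were chosen with earlier results of these data known. The fit was tested on simulated data. Alternatives changed the filter, the scaling, the treatment of low values, the spread estimate, the pool block, the probe sets and the arrays used. A lone pool was then taken to vary like the other stages. For arrays, their number limits the precision.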

Additional observations from a re-analysis of the deposited data

How the results depend on the processing

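Kl kept its direction and its side of the threshold under all 16 alternatives in each comparison, and no receptor was called between P2 and E19 under any of them. The number of FGF receptor genes called over the adult, 2 at E19 and 2 at P2, became 1 in both with no filter on low values and with the mean over the probe sets of a gene, and ranged from 1 to 2 at E19 and from 1 to 3 at P2 when 1 pool was left out, the 3 being reached without P2 pool 1 through Fgfr3. It was also 3 at P2 with arrays centred on their medians. The mean over probe sets reversed Fgfr2 at E19 over adult (0.30, limma adjusted p = 0.358) and Sulf1 and Hspa9 at P2 over adult (0.46 and 0.11, limma adjusted p = 0.446 and 0.73). That mean gives dim and bright probe sets equal weight. Most Fgfr2 probe sets stayed under 100 units on all arrays, and 1 of Hspa9 read 37.6 and 26.3 units in the adult. Values that low are no measure of the fold. List genes lower at E19 numbered 21 in place of 13 with arrays centred on their medians, and lower at P2 7 in place of 11 with no filter, where more probe sets share the adjustment. Calls between P2 and E19 were unstable, with 0 to 8 list genes higher (3 as reported, 0 without any 1 of the E19 or P2 pools) and 0 to 5 lower (2 as reported). Pool numbers did not pair the arrays, as differences between pool 1 and pool 2 correlated at -0.06, -0.04 and 0.01 between stages. With pool number as a replicate block, Kl was at -1.76 (limma adjusted p = 0.00181) at E19, -1.66 (limma adjusted p = 0.0026) at P2 and 0.09 (limma adjusted p = 0.685) for P2 over E19, the calls of the members did not change, and list genes called between P2 and E19 numbered 0 higher and 1 lower. With 2 pools per stage the intervals are wide, and the causes of these changes were not tested unless stated.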
